A study of Mus musculus with 36 samples.

Results

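The transcriptional response of 3T3-L1 cells labelled zfp217-/- to an adipogenic cocktail was read from 6 RNA-seq libraries, 3 taken at day 0 and 3 at day 2, out of 12 RNA libraries in the series. Genes entered when their mean over these 6 libraries was at least 1 FPKM (fragments scaled to gene length and library depth, a level that can be compared between genes). This held for 13019 of the 52505 genes in the expression table. 3T3-L1 is a mouse embryo fibroblast line committed to the fat cell lineage. The knockout (KO) group carries the genotype label zfp217-/- and the other group is labelled wild type (WT). Every library of both genotypes carries the treatment label "growth and MDI", and day 0 and day 2 are told apart by the time point label. The cocktail held DEX (dexamethasone, a glucocorticoid), isobutyl-methylxanthine (a phosphodiesterase inhibitor), insulin and indometacin (a cyclooxygenase inhibitor), in medium with fetal bovine serum. The labels do not tell whether replicate libraries are separate cultures or repeat preparations, and the p-values thus reflect spread among libraries that may be technical. They are also silent on whether KO is 1 clone and on which bases were changed.

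As background, the cocktail acts on preadipocytes through several known routes. Dexamethasone activates the glucocorticoid receptor, isobutyl-methylxanthine raises cyclic AMP, and insulin acts through its own receptor and that of IGF1. These signals induce the early transcription factors C/EBP beta and C/EBP delta, which in turn induce PPAR gamma and C/EBP alpha, the factors that switch on fat cell genes, and in 3T3-L1 the cells pass through a round of division before they differentiate. Zfp217 encodes a zinc finger protein of CoREST-type repressor complexes that has also been linked to the enzymes that place N6-methyladenosine (m6A) on RNA.

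Zfp217 itself (ENSMUSG00000052056, chr2:170108643-170151677 in GRCm38.p6) was measured first, as a check of the genotype label. Its level was 25.2, 25.8 and 26.9 FPKM in the libraries labelled KO at day 0 and 21.7, 23.4 and 22.7 FPKM at day 2. The day 2 libraries lay below the day 0 libraries without overlap, and the fall was small (log2 change -0.19, SE 0.04, limma adjusted p = 4.38e-04). A 2-sided exact permutation test of the same 6 values gave p = 0.1, the smallest that 3 against 3 allow. WT libraries held a mean of 21.96 FPKM at day 0 and 15.06 FPKM at day 2. The message was therefore not lower in the libraries labelled KO, and a gene-level value does not show whether a protein was made. Directions below are those of libraries as labelled.

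The libraries were deep and close to each other. Reads recovered from the table came to between 18073258 and 22406697 per KO library. Across genes, Pearson's r on the log2 scale was 0.994 to 0.995 between libraries of a KO group and 0.917 to 0.918 between the days. A single library of the series, WT day 0 replicate 3, stood apart through 22 genes that were at least 4-fold higher there than in the other WT day 0 libraries. These genes, among them the mitochondrial ribosomal RNAs mt-Rnr1 and mt-Rnr2, Hsp90aa1, Rpl12, Lars2 and several genes whose names begin with Rrp, took 0.377% to 0.388% of the reads in the KO day 0 libraries and 0.0235% to 0.0265% in the KO day 2 libraries. They took 0.573% in WT day 0 replicate 3, 0.0252% to 0.0259% in the other WT day 0 libraries and 0.0373% to 0.0429% in the WT day 2 libraries. Of the 20 of them that were tested, 18 fell at least 2-fold in KO and 2 did not pass.

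Most genes changed between the days. A gene was called when its adjusted p was under 0.05 in limma, with Benjamini-Hochberg adjustment over the 13019 genes. By this rule 9512 genes changed (73.1%), of which 4361 rose (33.5%) and 5151 fell (39.6%). Falls outnumbered rises on the deposited scale and after TPM scaling (3996 and 5484), but not after median-of-ratios scaling (4905 rises and 4612 falls) or quantile normalization (4856 and 4794). The median log2 change was -0.04, and 5949 of the called genes changed less than 1.5-fold. At least 2-fold, 724 genes rose (5.56%) and 963 fell (7.4%), on the log2(FPKM + 1) scale, which understates the change of genes with low levels. Day 0 and day 2 libraries did not overlap in 9767 genes (75%), with 4482 higher (34.4%) and 5285 lower (40.6%) at day 2. The counts of gene lists below are to be read against these shares, and folds are ratios of mean FPKM.

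The 12 largest rises of the genes named by rule included genes known to answer glucocorticoids and a family of secreted ribonucleases. Fkbp5, which encodes a chaperone that binds the glucocorticoid receptor complex (chr17:28398753-28486149), was at 7.69, 6.24 and 6.36 FPKM at day 0 and at 452, 438 and 447 FPKM at day 2. The groups were far apart, a 65.9-fold rise (log2 change 5.85, SE 0.05, adjusted p = 2.14e-15). Glul, the glutamine synthetase gene (chr1:153899929-153909723), was at 21.6, 24.7 and 23.2 FPKM and then at 1101, 1091 and 1145 FPKM, 48.1-fold higher. Errfi1, whose product inhibits the EGF receptor (chr4:150853796-150868889), rose 44.1-fold from 6.67, 7.22 and 7.34 FPKM to 312, 315 and 309 FPKM. In none of these 3 genes did any day 2 library come near the day 0 range.

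Of 22 genes on a list of glucocorticoid responses, 18 were tested, and 18 rose and 0 fell, with a median log2 change of 2.63 against -0.04 for all genes. A gene below 1 FPKM at day 0 can pass the filter only through day 2, which held for 1 of the 18. Among the 17 with at least 1 FPKM at both days the median was also 2.63. Tsc22d3, which encodes the glucocorticoid-induced leucine zipper, went from 29.4, 28.3 and 30.4 FPKM to 650, 622 and 638 FPKM (21.7-fold). Ddit4, an inhibitor of mTORC1 signalling, rose 10.2-fold from a mean of 44.76 ± 2.13 FPKM to 456.9 ± 14.3 FPKM (SD, n = 3). Dusp1, a phosphatase of MAP kinases, rose 5.59-fold to 373.1 ± 3.04 FPKM. Sgk1, a kinase of the same list, rose least, at 45.09 ± 0.874 and 60.2 ± 0.411 FPKM (log2 change 0.41, adjusted p = 1.63e-08). The receptor gene Nr3c1 fell 1.45-fold, from 68.61 ± 0.145 to 47.3 ± 1.91 FPKM.

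The secreted ribonuclease genes Ear2, Ear1 and Ear10, named after eosinophils, were among the 4 largest rises of the genes named by rule, which leaves the pseudogene Ear-ps2 out. Ear2 was at 6.85, 9.89 and 9.13 FPKM at day 0 and at 3272, 3241 and 3633 FPKM at day 2, a 392-fold rise (log2 change 8.47, SE 0.10, adjusted p = 1.30e-14). Ear1 was at 0.808, 0.604 and 1.23 FPKM and then at 257, 253 and 336 FPKM. Ear10 was at 2.98, 2.51 and 2.14 FPKM and then at 311, 300 and 324 FPKM. These genes are near-identical copies, so how the reads were shared among them is uncertain. The acid glycoprotein gene Orm3, one of a similar family, rose from 0.286, 0.602 and 0.55 FPKM to 172, 176 and 181 FPKM, and its relatives Orm1 and Orm2 reached 23.99 ± 0.393 and 17.88 ± 1.43 FPKM.

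The 12 largest rises held other genes as well. Among the 12, Ear1, Orm3, Lcn2, Retnla and Fam107a had day 0 means under 1 FPKM. They passed the filter through day 2 alone, so their rise follows from the filter. Lcn2, an iron-siderophore carrier of the acute phase, went from 0.777, 0.402 and 0.306 FPKM to 69.3, 69.6 and 75.6 FPKM. Retnla, a resistin-like secreted protein, went from 0.109 ± 0.0408 FPKM to 58.13 ± 4.41 FPKM, and Agt, which encodes angiotensinogen, from 2.739 ± 0.206 to 93.97 ± 3.65 FPKM (34.3-fold). Fam107a was at 0.0245 FPKM in KO day 0 replicate 1, is listed at 0 in the other KO day 0 libraries, and was at 53.8, 53.3 and 50.6 FPKM at day 2. Map7d2, a microtubule-binding protein gene, rose 88.3-fold to 90.65 ± 0.364 FPKM. The complement gene C3 rose 18.9-fold from 61.99 ± 2.16 to 1173 ± 11.7 FPKM. On the list of acute phase and serpin genes 9 of 14 were tested, with 6 higher and 3 lower. Of these 9, 4 were below 1 FPKM at day 0 and passed the filter through day 2. Among the other 5, 2 rose and 3 fell, with a median log2 change of -0.46 against 3.21 for all 9. The 3 that fell were C4b, Cp and Apod, with log2 changes of -0.46, -1.09 and -2.52.

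**Figure D1:**
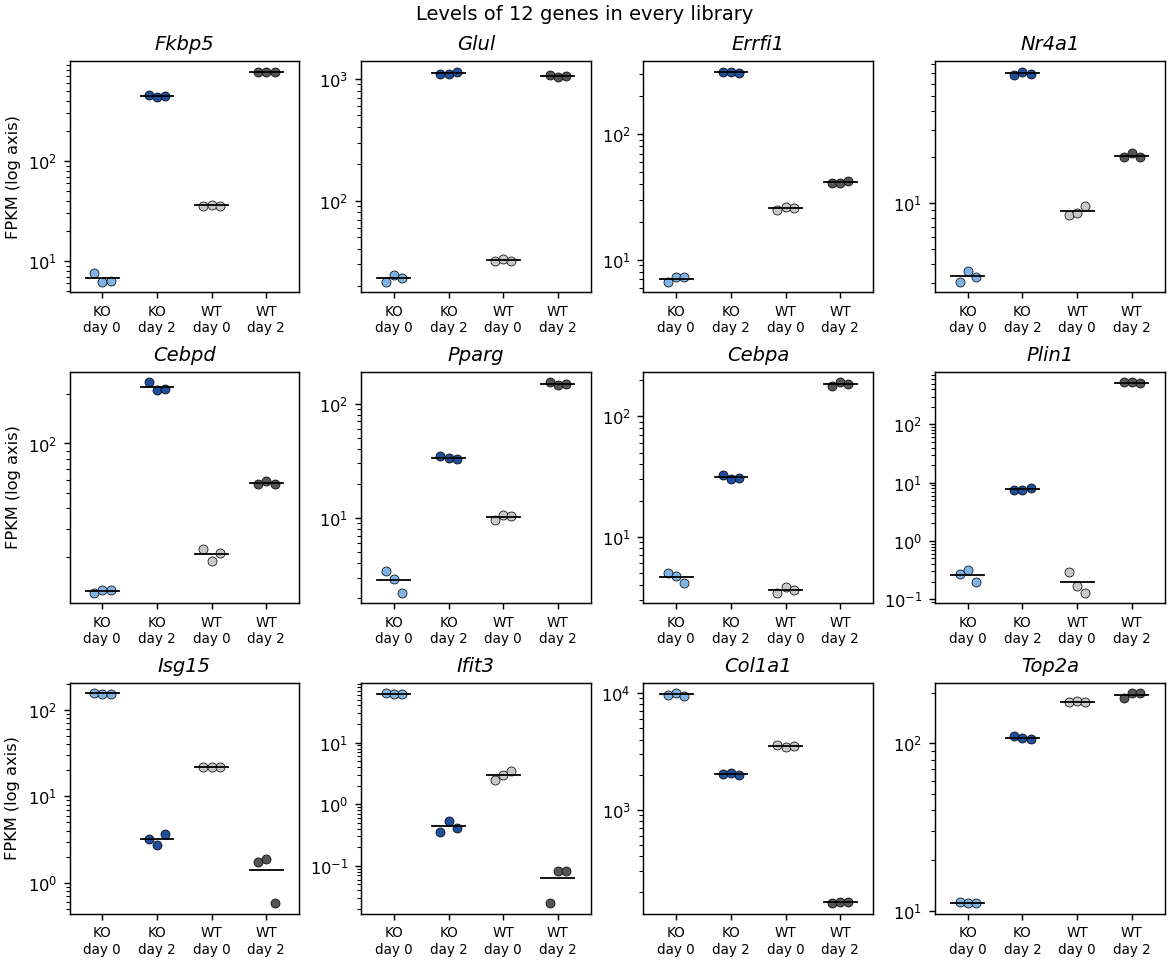
FPKM (log axis, a scale of its own in each panel) of 12 genes in each of the 12 libraries by genotype and day, with a point for each library and a line at the mean of 3. In each of these genes the 3 KO day 0 points and the 3 KO day 2 points do not overlap, as for Fkbp5 (6.24 to 7.69 against 438 to 452 FPKM) and Isg15 (154 to 157 against 2.71 to 3.7 FPKM). The same held for 75% of all tested genes, and some of the 12 were named by a rule that required it.

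Immediate early genes and genes driven by cyclic AMP rose as well. Of 20 listed, 19 were tested, 14 rose and 5 fell, with a median log2 change of 1.43. Nr4a1, an orphan nuclear receptor (chr15:101253902-101274795), was at 3.06, 3.59 and 3.3 FPKM at day 0 and at 68.7, 71.8 and 69.2 FPKM at day 2 (21.1-fold, log2 change 4.04, SE 0.06, adjusted p = 3.99e-14). Sik1, a kinase induced by cyclic AMP, went from 8.25, 8.96 and 8.46 FPKM to 74.1, 74.8 and 73.9 FPKM. The phosphodiesterase genes Pde4b and Pde4d, whose products break down cyclic AMP, rose 6.37-fold and 5.27-fold to 40.21 ± 1.52 and 51.53 ± 1.52 FPKM. Jun rose 3.72-fold to 53.11 ± 1.11 FPKM, Egr3 6.04-fold to 10.8 ± 0.705 FPKM and Fos 2.43-fold to 30.97 ± 0.644 FPKM. The 5 members that fell were Nr4a2, Crem, Atf3, Ier3 and Ppargc1a, with log2 changes between -0.92 and -0.39.

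The early and late factors of fat cell formation rose together. Of 22 adipogenic transcription factors 21 were tested, 13 rose and 6 fell, with a median log2 change of 1.02. Cebpd, the gene of C/EBP delta (chr16:15887286-15889545), was at 12.2, 12.7 and 12.6 FPKM at day 0 and at 237, 214 and 215 FPKM at day 2 (17.7-fold, log2 change 4.04, SE 0.06, adjusted p = 3.99e-14). Cebpb, the gene of C/EBP beta, went from 34.5, 37.6 and 36.2 FPKM to 289, 248 and 234 FPKM (7.12-fold). The zinc finger factor gene Klf5 showed the largest rise of the list, from 0.772, 0.648 and 0.768 FPKM to 31.8, 31.4 and 31.8 FPKM (43.4-fold). Klf5 was below 1 FPKM at day 0 and passed the filter through day 2 alone, so its rise follows from the filter. Among the 19 members with at least 1 FPKM at both days 12 rose and 5 fell, with a median of 1.02. Stat5a, which carries signals of growth hormone, rose 8.73-fold from 21.56 ± 0.381 to 188.1 ± 4.03 FPKM.

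Pparg (chr6:115360879-115490404) was at 3.41, 2.91 and 2.22 FPKM at day 0 and at 34.7, 33.6 and 32.7 FPKM at day 2, an 11.8-fold rise (log2 change 3.18, SE 0.09, adjusted p = 1.47e-11). Cebpa rose 6.75-fold, from 4.99, 4.72 and 4.12 FPKM to 32.5, 30.3 and 30.5 FPKM. All 6 day 2 values of these genes lay above 30 FPKM and all 6 day 0 values below 5 FPKM. Srebf1, a regulator of lipid synthesis, rose 3.48-fold to 117.7 ± 1.45 FPKM, and Rxra, the partner of PPAR gamma, rose with a log2 change of 1.96. The 6 that fell were Zfp423 (2.455 ± 0.334 to 0.6557 ± 0.0394 FPKM), which marks committed preadipocytes, and Klf4, Klf6, Nr3c1, Ebf1 and Ebf2, whose log2 changes lay between -0.62 and -0.13. Creb1 and Nr1h3 did not pass.

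Fat cell genes rose too, mostly to low levels. Of 25 listed, 13 were tested, 13 rose and 0 fell, with a median log2 change of 1.71. Of the 13, 3 were below 1 FPKM at day 0 and passed the filter through day 2 alone, so their rise follows from the filter. The other 12 members stayed under 1 FPKM on average, and their highest value in any KO library was 1.23 FPKM at day 0 and 1.53 FPKM at day 2. Adipoq, the adiponectin gene, was among these, at 0.121, 0.0508 and 0 FPKM at day 0 and 0.536, 0.459 and 0.422 FPKM at day 2. Pnpla2, the fat triglyceride lipase gene, was the highest at day 2, going from 22.2, 22.5 and 23.1 FPKM to 417, 421 and 419 FPKM (18.5-fold). Acsl1, which activates fatty acids, rose 16.6-fold from 12.6 ± 0.567 to 208.8 ± 5.96 FPKM. Cidec, a lipid droplet protein gene, was uneven at day 0 at 1.69, 0.325 and 0.701 FPKM and reached 42.4, 43 and 39 FPKM. The fatty acid carrier gene Fabp4 (chr3:10204342-10208616) was at 3.56, 1.07 and 1.25 FPKM and then at 9.85, 10.5 and 10.5 FPKM, 5.24-fold higher. Lpl, the lipoprotein lipase gene, rose only 1.43-fold, from 190.4 ± 3.62 to 272.8 ± 6.56 FPKM. In bulk RNA, a change in the number of cells that express a gene and a change in RNA per cell cannot be told apart.

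Genes known to restrain fat cell formation moved both ways. Of 22 listed, 19 were tested, 8 rose and 10 fell, with a median log2 change of -0.20. Gata2, a zinc finger factor, fell from 4.22, 5.4 and 4.77 FPKM to 0.46, 0.217 and 0.274 FPKM (log2 change -2.14). Its day 2 mean was under 1 FPKM, so it passed the filter through day 0 and its fall follows from it. Dlk1, the preadipocyte protein Pref-1, fell 2.92-fold from 868, 900 and 872 FPKM to 302, 297 and 304 FPKM. Klf2 fell 3.72-fold and Runx2, the bone regulator, 3.41-fold. Foxc2 rose 3.63-fold from 5.901 ± 0.0942 to 21.44 ± 1.06 FPKM, Foxo1 rose with a log2 change of 1.43, and Nr2f2 (COUP-TFII) rose 1.99-fold to 58.39 ± 1.88 FPKM. Of 14 surface markers of preadipocytes 10 were tested, 2 rose and 8 fell, with a median log2 change of -0.85. Pdgfrb fell 3.93-fold and Ly6a, which encodes Sca-1, 3.92-fold, while the stem-like fibroblast marker Pi16 rose from 1.429 ± 0.307 to 7.232 ± 0.311 FPKM. Pdgfra fell 1.09-fold, from 192.9 ± 2.94 to 177.1 ± 2.82 FPKM.

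**Figure D2:**
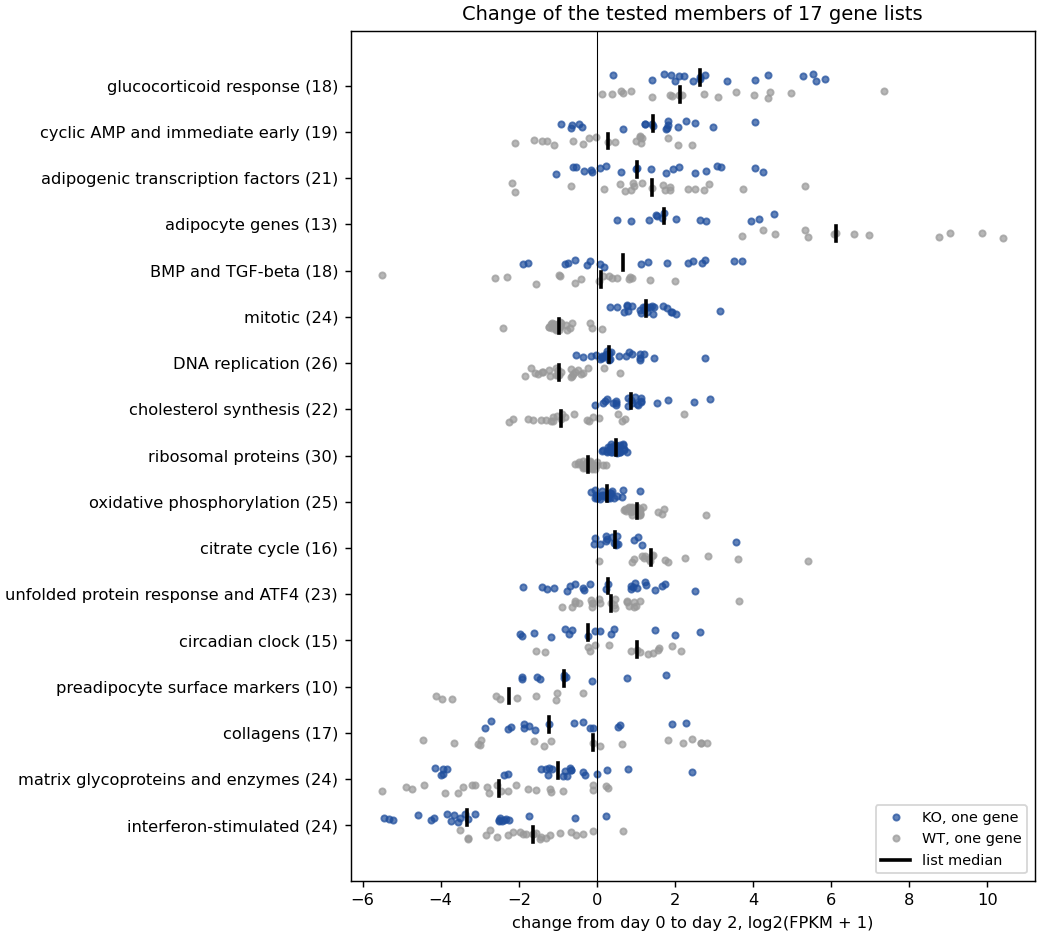
Change from day 0 to day 2 in log2(FPKM + 1) of each tested member of 17 gene lists, with KO in blue, WT in grey, a vertical bar at each list's median and the number tested in parentheses. The KO medians run from 2.63 for glucocorticoid responses to -3.33 for interferon-stimulated genes, and for mitotic genes they lie at 1.25 in KO and -0.98 in WT.

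Genes of cell division rose from a low level. All 24 listed mitotic genes were tested, 24 rose and 0 fell, with a median log2 change of 1.25. Of these, 3 were below 1 FPKM at day 0, and the 21 others had a median of 1.28. Top2a, the topoisomerase of dividing cells, was at 11.3, 11.2 and 11.1 FPKM at day 0 and at 110, 108 and 106 FPKM at day 2 (9.65-fold, log2 change 3.16, SE 0.03, adjusted p = 9.00e-16). Ccnb1, the cyclin of mitotic entry, was at 2.71, 2.71 and 2.75 FPKM and then at 13.2, 12.8 and 13.6 FPKM. Nusap1 and Tpx2, which organise the spindle, rose 5.13-fold and 4.56-fold. Mki67, the Ki-67 proliferation marker, was at 1.8, 1.68 and 1.94 FPKM and then at 5.53, 5.84 and 5.1 FPKM. Cdk1, the kinase partner of cyclin B, rose least, 1.29-fold to 19.66 ± 1.01 FPKM. The 24 genes together summed to between 80.2 and 81.1 FPKM in a day 0 library and to between 306 and 313 FPKM in a day 2 library.

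Replication and G1 genes were less uniform. Of 26 replication genes 26 were tested, 19 rose, 3 fell and 4 did not pass, with a median log2 change of 0.31. Among the 24 with at least 1 FPKM at both days 17 rose and 3 fell, with a median of 0.29. Pcna, the sliding clamp, rose 6.88-fold from 57.7, 61.2 and 63 FPKM to 404, 417 and 429 FPKM, and the helicase subunit gene Mcm5 rose 3.17-fold to 12.74 ± 0.458 FPKM. Mcm7 and Cdc45, parts of the same helicase, rose 2.37-fold and 2.44-fold. Gins3, Rfc3 and Pola1 fell, with log2 changes of -0.36, -0.53 and -0.16. Myc rose 6.33-fold, from 10.9, 10.8 and 10.2 FPKM to 68, 67.4 and 66.8 FPKM. Among the cyclin genes of G1, Ccne1 and Ccne2 rose 2.11-fold and 3.52-fold, while Ccnd1 fell 1.92-fold from 55.68 ± 0.594 to 28.98 ± 0.477 FPKM and Ccnd2 fell 2.7-fold. Cdkn1a, the inhibitor p21, fell 1.21-fold from 324, 314 and 318 FPKM to 255, 260 and 273 FPKM.

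Promoters of mitotic genes often carry CCAAT boxes, which the factor NF-Y binds. The letters CCAAT were searched on both strands in the 250 bases before the start of each gene in RefSeq promoter sequences (GRCm38.p6), which matched 9048 of the tested genes. They were found in 17 of 20 mitotic promoters (85%), 14 of 15 cholesterol synthesis promoters (93.3%), 37.4% of promoters of tested genes, 44.8% of the promoters of genes that rose at least 2-fold, 33.2% of those that fell at least 2-fold and 34.5% of all promoters in the table. The letters TTTGAA, part of an element named CHR that cell cycle genes share, were found in 7 of the 20 mitotic promoters (35%) and 10.2% of tested ones. Shown first is the 250-base stretch before Ube2c, a gene of the mitotic ubiquitin ligase whose level went from 2.24, 2.03 and 2.45 FPKM to 9.13, 9.54 and 9.69 FPKM, since it holds 6 CCAAT matches, 2 of which overlap, and 1 TTTGAA match. Shorter stretches follow for Ccnb1, Bub1 and Plk1. Capitals mark the matches, which read ATTGG or TTCAAA on the other strand, and in the shorter stretches only the CCAAT match nearest the start is marked. The stretches lie at chr2:164769679-164769928 (plus strand), chr13:100786529-100786573 (minus), chr2:127831877-127831921 (minus) and chr7:122159401-122159434 (plus). A match describes letters, not binding.
Ube2c: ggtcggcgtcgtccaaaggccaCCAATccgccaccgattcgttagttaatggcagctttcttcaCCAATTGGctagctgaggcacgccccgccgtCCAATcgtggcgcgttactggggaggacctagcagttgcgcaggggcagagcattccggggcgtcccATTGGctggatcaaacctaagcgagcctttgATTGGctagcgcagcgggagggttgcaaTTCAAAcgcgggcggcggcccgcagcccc
Ccnb1: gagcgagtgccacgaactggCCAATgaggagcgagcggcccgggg
Bub1: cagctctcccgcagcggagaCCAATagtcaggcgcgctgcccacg
Plk1: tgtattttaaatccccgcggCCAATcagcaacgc

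Cholesterol synthesis genes rose. Of 23 listed, 22 were tested, 21 rose and 0 fell, with a median log2 change of 0.88 and Sc5d as the member that did not pass (log2 change -0.05). Hsd17b7, a late enzyme of the pathway, went from 11.9, 12.8 and 13.6 FPKM to 103, 102 and 99.1 FPKM (7.95-fold, log2 change 2.90, SE 0.04, adjusted p = 6.84e-14). Dhcr7, the last step of one branch (chr7:143823167-143848410), rose 5.82-fold from 16.8, 19 and 18.6 FPKM to 106, 105 and 105 FPKM. Idi1, an isomerase of the isoprenoid steps, rose 2.99-fold from 18.5, 18.8 and 20.3 FPKM to 57.4, 58 and 57 FPKM. The sterol element letters TCACNCCAC were found in 1 of 15 of these promoters and in 0.873% of tested ones. The match lay before Hmgcs1, the synthase of the first committed steps, at chr13:119690194-119690242 (plus strand), and Hmgcs1 rose 2.22-fold to 71.17 ± 2.35 FPKM. Its stretch is shown with the match in capitals.
Hmgcs1: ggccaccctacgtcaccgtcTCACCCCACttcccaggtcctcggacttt

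Fatty acid synthesis genes did not move as a block. Of 18 listed, 15 were tested, 10 rose and 5 fell, with a median log2 change of 0.34. Fasn, the fatty acid synthase, rose 3.9-fold from 88.2, 88 and 83.4 FPKM to 345, 339 and 329 FPKM, and the desaturase gene Scd1 3.87-fold to 54.22 ± 0.732 FPKM. The desaturase genes Fads1, Fads2 and Fads3 fell, with log2 changes of -0.79, -0.81 and -1.01, as did Acacb and Me1. Of 15 fatty acid oxidation genes tested 10 rose and 2 fell, with a median of 0.19. Acadm, the medium-chain dehydrogenase, rose 2.98-fold to 274.3 ± 3.35 FPKM, Cpt2 rose 2.1-fold, and Cpt1a, which admits fatty acids to mitochondria, fell 1.87-fold to 15.17 ± 0.237 FPKM.

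Interferon-stimulated genes had the lowest median of the lists. Of 28 listed, 24 were tested, 1 rose and 23 fell, with a median log2 change of -3.33. Of the 24, 6 were below 1 FPKM at day 2 and so passed the filter through day 0, and among the 18 with at least 1 FPKM at both days 17 fell and 1 rose, with a median of -3.01. Isg15, a ubiquitin-like modifier (chr4:156199424-156200818), went from 157, 154 and 155 FPKM to 3.19, 2.71 and 3.7 FPKM (48.5-fold lower, log2 change -5.22, SE 0.18, adjusted p = 1.10e-10). Ifit3, which binds viral RNA complexes (chr19:34583119-34588982), went from 63.7, 61 and 61 FPKM to 0.358, 0.542 and 0.415 FPKM, the largest fall on the log2(FPKM + 1) scale among the genes named by rule. Its near-identical copy Ifit3b went from 24.4, 24.5 and 27.2 FPKM to 0.0893, 0.105 and 0.0965 FPKM, a larger fall as a ratio of means (262-fold against 141-fold), and how reads were shared between them is uncertain. Every day 2 library lay far under every day 0 library in these genes. Oasl2, an antiviral synthetase-like gene, fell 70.8-fold from 90.7, 92.1 and 88.3 FPKM to 1.44, 1.15 and 1.24 FPKM. Off the list but among the 12 largest falls were the antiviral genes Oas2 and Xaf1. Oas2 fell from 20.8, 20.9 and 19.7 FPKM to 0.194, 0.0761 and 0.14 FPKM. Xaf1 fell from 39.8, 37.6 and 38.9 FPKM to 0.936, 1.52 and 1.15 FPKM. Ifit3, Ifit3b and Oas2 had day 2 means under 1 FPKM and passed the filter through day 0, so their fall follows from it. The transcription factor genes of the pathway fell with the effectors, Irf7 18.4-fold from 27.13 ± 0.221 to 1.475 ± 0.213 FPKM and Stat2 5.61-fold to 16.96 ± 0.876 FPKM. Bst2, a tether of virus particles and the most abundant of the list at day 0, fell 5.65-fold from 528, 543 and 533 FPKM to 98.7, 96.2 and 88.9 FPKM. The member that rose was Ifi27, 1.19-fold to 118.2 ± 2.29 FPKM. The listed genes together summed to between 1580 and 1600 FPKM in a day 0 library and to between 295 and 305 FPKM in a day 2 library.

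The interferon response element, searched as GAAA, any 2 bases and GAAA again on either strand, was found in 8 of 20 interferon-stimulated promoters (40%), 7.03% of promoters of genes that fell at least 2-fold, 1.78% of those that rose at least 2-fold, 2.58% of promoters of tested genes and 3.05% of all promoters. The 250 bases before Isg15 (chr4:156200819-156201068, minus strand) hold 3 overlapping matches. Stretches before Ifit1 (chr19:34640784-34640833, plus), Rsad2 (chr12:26456543-26456592, minus) and Stat2 (chr10:128270256-128270305, plus) are shown beside it because these genes fell with log2 changes of -4.57, -2.39 and -2.42. Capitals mark the matches in Isg15 and the match nearest the start in the others, which reads TTTC, any 2 bases and TTTC on the other strand.
Isg15: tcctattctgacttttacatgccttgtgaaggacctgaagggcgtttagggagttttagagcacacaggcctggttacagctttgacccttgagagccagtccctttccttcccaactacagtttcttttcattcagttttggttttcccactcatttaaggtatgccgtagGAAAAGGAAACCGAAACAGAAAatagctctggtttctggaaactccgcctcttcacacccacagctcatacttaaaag
Ifit1: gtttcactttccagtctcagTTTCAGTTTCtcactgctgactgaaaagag
Rsad2: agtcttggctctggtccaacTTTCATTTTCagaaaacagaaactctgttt
Stat2: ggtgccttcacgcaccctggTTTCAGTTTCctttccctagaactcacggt
Of the other elements searched in the same windows, the cyclic AMP element TGACGTCA was in 1.58% of promoters of genes that rose at least 2-fold and 2.77% of tested ones, and the E2F letters TTTCGCGC or TTTGGCGC in 1.38% and 1.39%. The glucocorticoid element, searched as AGAACA and TGTTCT set 3 bases apart, was in 0 of the 507 promoters of genes that rose at least 2-fold. It was also in 0 of the 9048 promoters of tested genes and in 1 of all 27025 promoters. A pattern this rare cannot tell the genes that rose from the others.

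**Figure D3:**
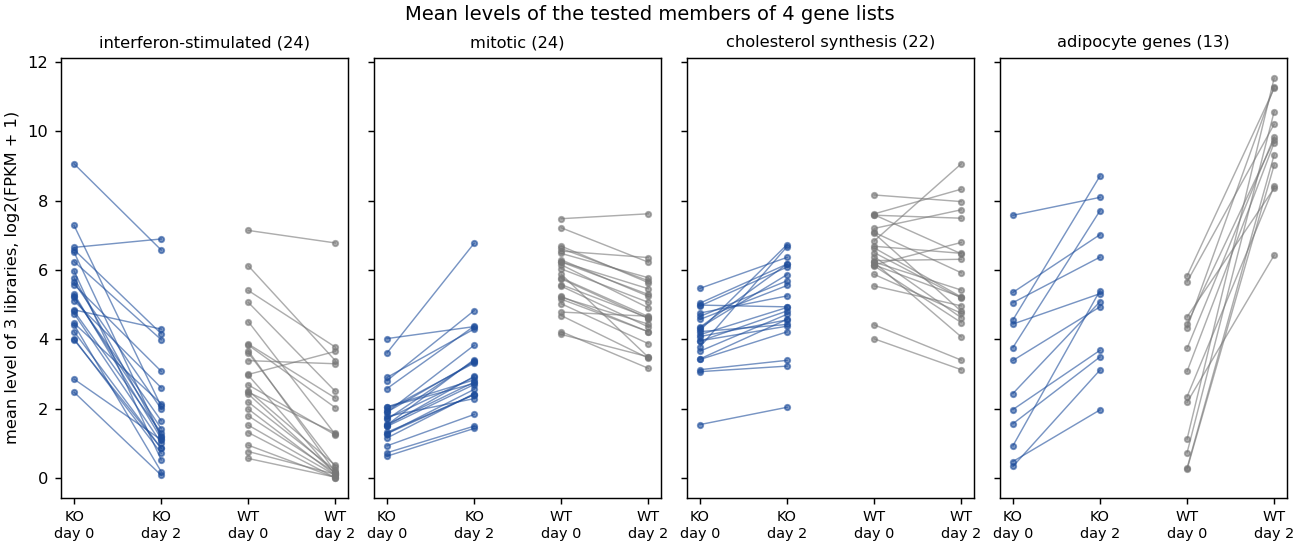
Mean level of 3 libraries in log2(FPKM + 1) of each tested member of 4 gene lists, with a line joining day 0 and day 2 of KO (blue) and of WT (grey). In KO, 23 of 24 interferon-stimulated genes fell, while 24 of 24 mitotic, 21 of 22 cholesterol synthesis and 13 of 13 tested adipocyte genes rose. Of all tested genes, 39.6% fell and 33.5% rose. Among members with at least 1 FPKM at both days the 4 counts were 17 of 18, 21 of 21, 21 of 22 and 10 of 10.

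Matrix genes fell. Of 17 collagen genes tested 4 rose and 12 fell, with a median log2 change of -1.23. Col1a1, the main fibrillar collagen gene (chr11:94936224-94953042), went from 9703, 10014 and 9521 FPKM to 2034, 2057 and 1980 FPKM (4.82-fold lower, log2 change -2.27, SE 0.03, adjusted p = 1.26e-14). Col1a2 and Col3a1 fell 3.69-fold and 4.55-fold. The largest falls of the list were those of Col12a1, a fibril-associated collagen gene (253, 250 and 251 FPKM to 33.1, 34.5 and 33.1 FPKM), and Col8a1, a short-chain collagen gene (8.82-fold lower). The genes that rose encode the basement membrane collagens Col4a1 and Col4a2, 4.82-fold and 3.82-fold to 2702 ± 108 and 1513 ± 31.5 FPKM, and the microfibrillar Col6a1 and Col6a2, with log2 changes of 0.53 and 0.59. Of 24 other matrix genes tested 3 rose and 20 fell, with a median of -1.01. The proteoglycan gene Dcn went from 288, 272 and 276 FPKM to 15.3, 14.7 and 14.7 FPKM (18.7-fold lower). Mfap4, a microfibril gene outside the list, fell 38.7-fold to 0.672, 0.747 and 0.808 FPKM. Ogn, Timp3 and Tnc fell 16.2-fold, 18.9-fold and 30.5-fold. Mfap4 and Tnc had day 2 means under 1 FPKM and passed the filter through day 0, so their fall follows from it. Bgn fell with a log2 change of -0.35 that turned to 0.08 with quantile normalization. Ecm1 rose 5.41-fold to 1321 ± 22.2 FPKM, and P4ha2 and Loxl1 also rose.

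Contractile genes changed less. Of 12 tested, 3 rose and 8 fell, with a median log2 change of -0.26. Tpm1, a tropomyosin gene, fell 4.62-fold from 314, 317 and 320 FPKM to 69.8, 67 and 69 FPKM, and the smooth muscle actin gene Acta2 3.77-fold from 73, 73.6 and 75.4 FPKM to 19.2, 18.8 and 20.8 FPKM. Cnn2, a calponin gene, fell 3.49-fold. Ccn1, a matricellular gene, rose 3.55-fold to 85.01 ± 3.37 FPKM. Spp1, the osteopontin gene, fell 21.7-fold from 208, 212 and 209 FPKM to 10.9, 8.64 and 9.49 FPKM.

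The median changes of the lists of energy metabolism were under 2-fold, and single genes changed more. Of 25 oxidative phosphorylation genes tested 16 rose and 2 fell, with a median log2 change of 0.25 that was 0.13 after quantile normalization. Cycs, the cytochrome c gene, rose most, 2.19-fold from 28, 24.3 and 28 FPKM to 52.8, 60.9 and 61.8 FPKM. Sdha and Sdhb, subunits of complex II, fell by 0.06 and 0.14 on the log2 scale. The number that fell was 0 of the 25 after median-of-ratios scaling, 3 after TPM scaling and 4 after quantile normalization. Of 16 citrate cycle genes 14 rose and 0 fell, with a median of 0.45. After TPM scaling or quantile normalization 2 of them fell. Idh3a, Pdha1 and Idh2, dehydrogenases of the pathway, rose 2.29-fold, 2.08-fold and 1.96-fold. Pcx, pyruvate carboxylase, rose 12.4-fold from 19.7, 19.2 and 18.8 FPKM to 240, 243 and 234 FPKM. Of 17 genes of glycolysis and glucose transport 10 rose and 6 fell. Pdk4, which inhibits pyruvate dehydrogenase, rose 6.51-fold to 105.8 ± 2.04 FPKM, the hexokinase gene Hk2 5.92-fold to 18.94 ± 0.758 FPKM and the phosphofructokinase gene Pfkp 3.85-fold, while the glucose transporter gene Slc2a1 fell 3.47-fold to 69.87 ± 2.66 FPKM.

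Of 30 ribosomal protein genes 29 rose and 0 fell, with a median log2 change of 0.48. After quantile normalization 22 passed, the median was 0.28 and Rps4x turned to -0.02. Rpl18 rose 1.7-fold from 685, 724 and 699 FPKM to 1199, 1166 and 1210 FPKM. Of the 15 mitochondrially encoded genes 7 rose and 3 fell. Those that fell were mt-Rnr1 (395, 379 and 396 FPKM to 13.5, 17.2 and 16.4 FPKM), mt-Rnr2 (370, 367 and 374 FPKM to 14.3, 19.2 and 17.9 FPKM) and mt-Co2 (2626, 1151 and 3870 FPKM to 452, 611 and 767 FPKM). The 2 ribosomal RNAs belong to the genes that set WT day 0 replicate 3 apart. Without the 22 genes of that set, an alternative chosen after seeing the data, 9494 genes were called in the KO response. Of the set 18 had been called, so this count reflects their removal and does not test the effect of that library. The spread of mt-Co2 was wide, and it did not pass without KO day 0 replicate 1 (log2 change -1.82, adjusted p = 0.0564), KO day 0 replicate 3 (-1.54, adjusted p = 0.0816) or KO day 2 replicate 1 (-1.73, adjusted p = 0.0653). Among those that rose, mt-Nd2 went from 2518, 2388 and 2514 FPKM to 4253, 4398 and 4559 FPKM.

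Of 23 genes on the list of the unfolded protein response and ATF4, 13 rose and 10 fell, with a median log2 change of 0.28. Hspa5, the chaperone BiP, rose 2.39-fold from 688, 688 and 674 FPKM to 1664, 1614 and 1612 FPKM. Sdf2l1, Creld2 and Manf, all induced by stress of this compartment, rose 5.99-fold, 3.41-fold and 3.2-fold, and Xbp1 rose 2.05-fold. Atf4 itself fell 1.46-fold from 202.8 ± 2.66 to 138.4 ± 3.99 FPKM. Its known targets Chac1, Trib3 and Ddit3 fell 3.98-fold, 2.68-fold and 1.7-fold, and the serine synthesis gene Phgdh 2.43-fold. Of 16 heat shock and chaperonin genes 10 rose and 5 fell. Cct2, of the cytosolic chaperonin, rose 1.6-fold from 207, 195 and 204 FPKM to 322, 324 and 323 FPKM, and Hspe1 rose 1.52-fold. The inducible chaperone gene Hspa1b fell 2.35-fold, with reads that its near-identical copy may share. Hsp90aa1 fell from 178, 174 and 178 FPKM to 4.7, 7.7 and 6.15 FPKM (28.6-fold, log2 change -4.65, SE 1.00, adjusted p = 0.00121). Hsp90aa1 was at 886 FPKM in WT day 0 replicate 3 against 27.2 and 28.5 FPKM in the other WT day 0 libraries. Its SE takes in this spread, since the fit used all 12 libraries. Within KO the SD was 2.35 FPKM at day 0 and 1.5 FPKM at day 2.

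Signalling genes moved in several groups. On a list of BMP and TGF-beta genes 18 of 24 were tested, 10 rose and 7 fell. The Id genes, targets of BMP that block E-protein transcription factors, rose together. Id4 (chr13:48261116-48266028) went from 0.8, 0.896 and 0.882 FPKM to 24.5, 23.3 and 22.4 FPKM (27.2-fold, log2 change 3.71, SE 0.06, adjusted p = 2.03e-13). Id4 was below 1 FPKM at day 0 and passed the filter through day 2 alone, so its rise follows from the filter. Among the 16 members of the list with at least 1 FPKM at both days 9 rose and 6 fell. Id1 rose 12.4-fold to 149.5 ± 5.79 FPKM, Id3 6.99-fold to 172.6 ± 7.71 FPKM and Id2 4.22-fold to 13.68 ± 0.619 FPKM. The BMP antagonist gene Grem1 fell, with a log2 change of -0.81. Igf2, an imprinted growth factor gene (chr7:142650768-142666816), fell 26.2-fold from 71.3, 73.3 and 70.7 FPKM to 2.9, 2.63 and 2.7 FPKM. Pik3r1, the regulatory subunit of PI3-kinase, rose 4.7-fold to 349.5 ± 4.83 FPKM, Igfbp3 rose 3.7-fold and Igfbp6 fell 4.36-fold. Of 18 p53 target genes 8 rose and 6 fell, with a median log2 change of -0.03 that was 0.03 after median-of-ratios scaling. Among them Trp53inp1 rose 3.94-fold and Btg2, an antiproliferative gene, 2.56-fold, while the receptor gene Eda2r fell 2.05-fold. Of 11 Wnt pathway genes tested 5 rose and 6 fell, with the receptor gene Fzd2 3.66-fold lower and Wnt5a 2.29-fold lower. Of the 11, 2 were below 1 FPKM at day 0 and passed the filter through day 2. Among the other 9, 3 rose and 6 fell, with a median log2 change of -0.47 against -0.14 for all 11.

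Clock genes moved both ways. Of 15 tested, 6 rose and 8 fell. Per1 and the repressor gene Nfil3 rose 4.31-fold and 6.95-fold, to 39.38 ± 1.16 and 47.89 ± 1.39 FPKM. Dbp, an activator that binds the same sites as Nfil3, fell 4.93-fold from 14.6, 14.7 and 13.1 FPKM to 3.09, 2.71 and 2.81 FPKM, and Nr1d2, Nr1d1 and Tef fell 4.56-fold, 1.7-fold and 1.79-fold. Of 12 chemokine and cytokine genes tested 4 rose and 6 fell, with Ccl2 4.75-fold lower at 16.64 ± 0.603 FPKM and Tnfaip6 4.4-fold higher at 3.817 ± 0.494 FPKM. Among the 9 with at least 1 FPKM at both days, which leaves out Tnfaip6, 2 rose and 5 fell. Of 10 genes of prostaglandin synthesis and reception 4 rose and 4 fell. Ptges, the inducible prostaglandin E synthase, rose 2.34-fold, and Pla2g4a, which frees arachidonic acid, fell 2.39-fold. Ptgs2, the inducible cyclooxygenase, fell 1.26-fold to 22.51 ± 0.5 FPKM, and Ptgfr, the receptor of prostaglandin F2 alpha, rose 3.51-fold to 24.51 ± 0.929 FPKM. The metallothionein gene Mt1 rose 6.83-fold to 1679 ± 220 FPKM, Gclc, of glutathione synthesis, 4.84-fold to 70.47 ± 1.27 FPKM and Cat, the catalase gene, 5.29-fold to 166.5 ± 2.57 FPKM. The zinc and iron transporter gene Slc39a14 rose 3.36-fold and the transferrin receptor gene Tfrc 2.48-fold. The iron exporter gene Slc40a1 fell 17.7-fold from 19.6, 21.5 and 20.5 FPKM to 1.12, 1.01 and 1.34 FPKM.

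The RNA methylation machinery moved little. Of 21 m6A genes tested 10 rose and 6 fell, with a median log2 change of 0.11, and 9 rose and 8 fell after TPM scaling. No member reached 2-fold, and the largest changes were those of Igf2bp3 (log2 change 0.64) and Fto (-0.60). Mettl3, the catalytic methyltransferase, was at 13.9, 14.1 and 14.6 FPKM at day 0 and at 14.3, 12.9 and 13.2 FPKM at day 2, with overlapping groups (log2 change -0.07, SE 0.04, adjusted p = 0.15). It passed after TPM scaling (log2 change -0.11, adjusted p = 0.039) and without KO day 2 replicate 1 (-0.11, adjusted p = 0.0244). Its partner Mettl14 fell 1.45-fold from 5.788 ± 0.223 to 3.988 ± 0.261 FPKM. The demethylase gene Fto fell 1.53-fold from 54.3, 55.2 and 56 FPKM to 35.5, 36.1 and 36.6 FPKM, and Alkbh5 fell 1.15-fold. Among reader genes, Ythdf2 rose 1.35-fold to 21.56 ± 1.52 FPKM and Igf2bp3 1.59-fold to 25.73 ± 1.18 FPKM. Of 10 genes of the Zfp217 complex, Zfp217 included, 1 rose and 7 fell, with Rcor3 1.86-fold lower at 8.824 ± 0.0912 FPKM. Ctbp1 and Rcor1, corepressors of the complex, fell 1.25-fold and 1.21-fold.

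Fibroblast markers were high throughout, and 7 of 8 fell. They summed to between 28600 and 29300 FPKM in a day 0 library and to between 9610 and 9880 FPKM in a day 2 library, with the intermediate filament gene Vim as the member that rose, 1.35-fold to 2115 ± 31.6 FPKM. Of 6 osteoblast markers 2 were tested and fell, Spp1 as given above and Runx2, and the list summed to between 232 and 237 FPKM in a day 0 library and to between 16.8 and 18.1 FPKM in a day 2 library. Of 6 chondrocyte markers 2 were tested. Sox9, a regulator of cartilage, rose 1.65-fold from 14.9, 15.5 and 13.8 FPKM to 24.1, 24.8 and 24.1 FPKM, and Comp did not pass. Neural and brown fat cell markers summed to at most 4.26 and 3.9 FPKM in any KO library. None of 6 endothelial, 6 epithelial and 7 skeletal muscle markers reached the filter, and their sums stayed at or below 1.37 FPKM in every KO library. Of the 6 epithelial markers 4 were listed at 0 in all 6 KO libraries. Of 9 macrophage and blood markers 2 were tested. Lyz2 fell from 14.8, 14.8 and 14.6 FPKM to 1.87, 1.36 and 1.72 FPKM, and Cd68 rose from 1.694 ± 0.0658 to 6.09 ± 0.996 FPKM. The other 7, the pan-leukocyte gene Ptprc among them, stayed at or below 0.199 FPKM in every KO library.

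The KO response was set against the WT response of the same 13019 genes to ask which changes differed between the genotypes as labelled. The test of the difference is an interaction term in the same model. It was called in 9514 genes (73.1%), with the KO change more positive in 5207 (40%) and more negative in 4307 (33.1%). This split depended on the scaling. The counts were 4779 and 4634 after TPM scaling, 4909 and 4535 after median-of-ratios scaling, and 4542 and 4946 after quantile normalization. The WT response itself was called in 10314 of these genes (79.2%), and the median absolute log2 change was 0.32 in KO and 0.48 in WT. Of the 724 genes that rose at least 2-fold in KO, 324 did so in WT, which is 44.8% of the KO genes and 28.9% of the WT genes. Of the 963 that fell at least 2-fold in KO, 566 did so in WT, 58.8% of the KO genes and 30% of the WT genes. Opposite calls at any size numbered 1418 for higher in KO and lower in WT and 909 for the reverse, and at least 2-fold in both they numbered 74 and 11. Across the 13019 genes, which are not independent, Pearson's r of the 2 sets of changes was 0.52 and Spearman's rho 0.43, as a description.

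Fat cell genes differed most in the negative direction. All 13 tested adipocyte genes rose less in KO, with median log2 changes of 1.71 in KO and 6.11 in WT. Fabp4 rose from a mean of 1.961 to 10.27 FPKM in KO and from 1.182 to 2975 FPKM in WT (difference -8.39 in log2, SE 0.31, adjusted p = 2.77e-10). Cd36, a fatty acid receptor gene, rose from 0.3913 to 2.907 FPKM in KO and from 0.2203 to 640.1 FPKM in WT (difference -7.54). Plin1 and Cidec followed at -5.99 and -5.30. Mc5r, a melanocortin receptor gene, was already at 21.09 FPKM in KO at day 0 and differed by -5.23, and Enpp2, the autotaxin gene, fell from 77.27 to 9.714 FPKM in KO while it rose from 1.37 to 10.45 FPKM in WT.

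Among the regulators, Cebpd rose more in KO (difference 2.63, SE 0.08, adjusted p = 4.17e-11) and Cebpb slightly more (0.47, SE 0.10, adjusted p = 7.79e-04). Cebpa rose less (difference -2.82, SE 0.08, adjusted p = 2.45e-11), reaching 31.11 FPKM in KO and 186.2 FPKM in WT. Pparg differed by -0.57 (SE 0.12, adjusted p = 0.00131) and reached 33.7 FPKM in KO and 150.2 FPKM in WT. With a pseudocount of 0.1 its difference was -0.33 (adjusted p = 0.0833), and in the fit on recovered reads -0.29 (adjusted p = 0.0867), so it did not pass there.

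In the positive direction the 6 largest differences were those of Slpi, Vdr, Acta2, Ccn1, Anxa3 and Il1rl1. Vdr, the vitamin D receptor gene, rose from 14, 14.8 and 13.8 FPKM to 169, 165 and 161 FPKM in KO and fell from a mean of 72.06 to 14.13 FPKM in WT (difference 5.72, SE 0.07, adjusted p = 3.18e-14). Slpi, a protease inhibitor gene, rose from 5.862 to 23.46 FPKM in KO and fell from 27.58 to 0.8067 FPKM in WT (difference 5.85). Ccn1 likewise rose in KO and fell in WT (difference 5.35). Acta2, Anxa3 and Il1rl1 fell in both, by far less in KO.

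The genotypes differed in direction for some gene lists and only in size for others. The median log2 change was 1.25 in KO and -0.98 in WT for mitotic genes, 0.88 and -0.91 for cholesterol synthesis genes, and 0.48 and -0.24 for ribosomal protein genes. It had the same sign in both for oxidative phosphorylation (0.25 in KO and 1.02 in WT), interferon-stimulated (-3.33 and -1.64) and glucocorticoid genes (2.63 and 2.13). The difference was positive for 24 of 24 mitotic genes, where Ccnb1 fell in WT from 88.3 to 53.92 FPKM, and for 25 of 26 replication genes. At day 2 the KO mean of Ccnb1, 13.22 FPKM, was still below either WT mean. At day 0 KO was also lower for Dhcr7 (18.14 FPKM against 76.29 FPKM in WT) and Rpl18 (702.8 against 1287 FPKM). At day 2 Dhcr7 was at 105.5 FPKM in KO and 78.43 FPKM in WT, and Rpl18 at 1192 and 1286 FPKM. They are examples from the cholesterol synthesis and ribosomal protein lists. Whether the opposite medians go with the level at day 0 was not tested. The difference was positive for 20 of 22 cholesterol synthesis genes and negative for 1, Cyp51. It was positive for 29 of 30 ribosomal protein genes, negative for 23 of 25 oxidative phosphorylation genes and negative for 20 of 24 interferon-stimulated genes. The KO day 0 level of interferon-stimulated genes was high, as with Isg15 at 155.1 FPKM in KO and 21.85 FPKM in WT. The log2(FPKM + 1) scale understates falls to low levels, so the size of the interferon difference depends on the scale. As a ratio of means, Oasl2 fell no less in WT (11.73 to 0.1264 FPKM) than in KO (90.35 to 1.276 FPKM). Isg15 fell more in KO (to 3.2 FPKM) than in WT (to 1.391 FPKM). Dbp, Tef and Nr1d1 fell in KO and rose in WT, with differences of -3.53, -2.13 and -2.31. Of 18 glucocorticoid genes 10 rose more in KO and 6 less, with Errfi1 the farthest apart at 4.61, since it rose from 25.66 to only 41.45 FPKM in WT.

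**Figure D4:**
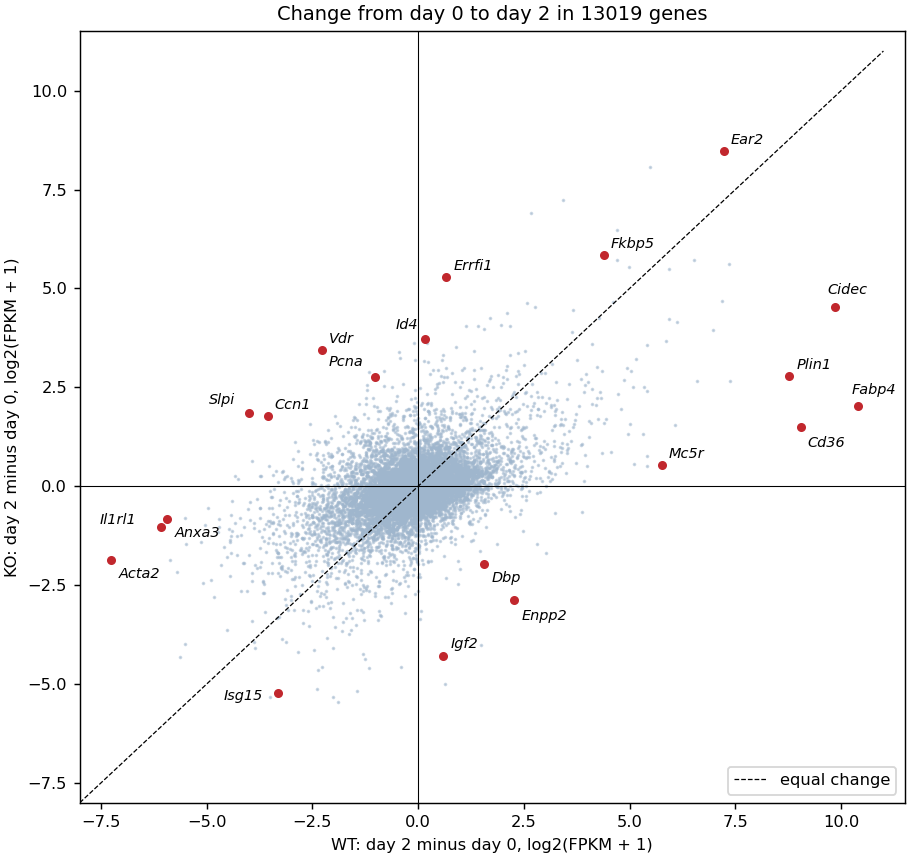
Change from day 0 to day 2 in log2(FPKM + 1) of 13019 genes in WT (horizontal axis) and KO (vertical axis), with 20 named genes in red and a dashed line of equal change. Fabp4, Cd36, Plin1 and Cidec lie far below the dashed line (differences of -8.39 to -5.30), and Vdr, Slpi and Ccn1 lie above it with a rise in KO and a fall in WT.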

How the data were processed

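Total RNA of 12 RNA-seq libraries, 3 in each of 4 groups, was measured. The authors deposited FPKM values for 52505 genes. Per the submitters' processing notes, the tools were CASAVA, FastQC, TopHat2 2.0.12, Bowtie2 2.2.3, BWA 0.7.12, MACS2 2.1.0 and HTSeq 0.6.1, with the build mm10 and no roles. How FPKM was computed, on which annotation and with which strand setting is not given in the sources used here, so overlapping and antisense genes are uncertain. The m6A immunoprecipitation samples were not analysed here. The FPKM values were whole multiples of 1 step per gene (tolerance 0.001 of a read), which gave whole reads for 30916 genes above 0.

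FPKM was log2-transformed after adding a pseudocount of 1. With limma 3.58.1 in R 4.3.3, 1 model with 4 group means took all 12 libraries (variance trend, 8 residual degrees of freedom, 2-sided tests, Benjamini-Hochberg adjustment over 13019 genes, threshold 0.05). The fit was also run on simulated data in which few genes changed. Most genes changed here, so that run does not test the counts given above. SD is over the libraries of a group, and n = 3 in each group. SE is that of the limma fit, with a spread estimated from all 12 libraries. The genes named are Zfp217, the 12 largest rises and falls without overlap between groups (predicted, clone, pseudogene and mt- names left out), up to 4 called members of each list by size of change, the 6 largest differences from WT each way and 12 regulators. Other list members are examples chosen after their values were seen. The members and lists were chosen with earlier results of these data known. Alternatives were a pseudocount of 0.1, other filters (none, at least 5 FPKM, the mean over 12 libraries), quantile, median-of-ratios and TPM scaling, a constant prior variance, KO libraries alone, a replicate block, each library left out, a 2-fold minimum and voom on the recovered reads. Some results are not reported here.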

Additional observations from a re-analysis of the deposited data

Results flagged for a closer look

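The change from day 0 to day 2 differed between KO and WT, by the test of the difference in limma, in 9514 genes. Among the genes named by rule, the KO change was more positive than the WT change for Slpi (difference in log2 5.85), Vdr (5.72), Acta2 (5.40), Ccn1 (5.35), Anxa3 (5.09) and Il1rl1 (5.05). It was more negative for Fabp4 (-8.39), Cd36 (-7.54), Plin1 (-5.99), Cidec (-5.30), Mc5r (-5.23) and Enpp2 (-5.14). Of the regulators, the difference was positive for Cebpd (2.63), Ccnd1 (2.52), Mki67 (2.32), Ythdf2 (0.80), Cebpb (0.47), Zfp217 (0.32) and Mettl3 (0.25), and negative for Cebpa (-2.82), Cdkn1a (-2.13), Fto (-0.70) and Pparg (-0.57). The genes of the first 2 groups were chosen for the size of this difference, so their values describe it.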

How the results depend on the processing

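The number of genes called in the KO response was between 9126 and 9493 when each library was left out in turn, and that of the difference from WT between 9270 and 9345. With a minimum change of 2-fold the counts were 1687 for the KO response, 2688 for the difference and 3007 for the WT response. With a minimum of 5 FPKM, where fewer genes are tested, 629 genes fell at least 2-fold. No filter gave 11604 calls and voom on recovered reads 9453. Leaving out the 22 genes that set WT day 0 replicate 3 apart, an alternative chosen after seeing the data, gave 9494. Of these genes 18 had been called, so the count reflects their removal and does not test the effect of that library.

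Same-numbered libraries of the KO groups had correlations of 0.002, -0.057 and 0.033 in their deviations. The highest with another number were 0.059, 0.031 and -0.005. No shared deviation of same-numbered libraries was thus seen, which does not tell whether they were prepared together. With a replicate block 9475 genes were called, and 9151 with the block in KO libraries alone (chosen after seeing the data).

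Of 4208 values of 176 genes named by rule under the alternatives, 4188 kept direction and call. The call was lost in 18 (Etfb, mt-Co2, S100b and Mc5r) and gained in 2 (Mettl3), and 0 turned. Other called list members did turn with quantile normalization, namely Bgn, Pdia3, Hspa8, Pkm and Rps4x. List medians turned sign or reached 0 in 11 of 982 values, over 7 lists. Of these the BMP and TGF-beta median went from 0.66 to 0.00 with no filter. The median of the fat cell list was 0.98 with no filter and 2.66 in the fit on reads.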
